A study of Mus musculus with 6 samples.

Results

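The genes described here make, remove and read the repressive marks of heterochromatin: methylation of histone H3 at K9 and methylation of DNA at CpG sites. They were chosen by name, as 34 genes of these pathways, and every probe set annotated with exactly one of these symbols was taken. The array held 33 of the 34 genes under that rule, with 81 of the 45037 probe sets tested. No probe set carried the symbol Suv39h1 alone, so that H3K9 methyltransferase is not described. By role, 5 of the 33 genes were H3K9 writers, 6 were H3K9 erasers, 9 were HP1 proteins and corepressors, and 13 belonged to DNA methylation and its readers. RNA of whole testis from mice aged 5 weeks was hybridised to Affymetrix arrays, with 3 arrays of wild-type mice and 3 of Phf13 knockout mice. The product of Phf13 binds histone H3 methylated at K4 through its PHD finger. The sources used here do not give the strain, how the knockout was made, or whether each array stands for another animal. The p-values therefore measure only how far these 6 arrays spread, which may be technical.

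In heterochromatin, SETDB1, the SUV39H enzymes and the EHMT pair place methyl groups on H3K9, HP1 proteins bind that mark, and the KDM3 and KDM4 demethylases take it off. DNA methylation is copied at replication by DNMT1, which UHRF1 brings to hemimethylated CpG sites, is laid down anew by DNMT3A and DNMT3B, and is oxidised by TET enzymes. In testis these systems silence transposons in germ cells and shape chromatin through meiosis, when H3K9 methylation by EHMT2 and the SUV39H enzymes is known to be needed.

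Values are log2 values of a probe set as deposited by the authors, and a difference is knockout minus wild type on that log2 scale. Array medians ran from 5.22 to 5.28 and lower quartiles from 3.66 to 3.75. A probe set's level also depends on its probes, so nothing is read from the levels of different genes beside each other. Where 1 value stands for a gene, it is that of the probe set whose mean was highest, here called the brightest. Phf13 itself stood at 9.55, 9.47 and 9.56 on the wild-type arrays and at 6.71, 6.60 and 6.55 on the knockout arrays, which did not overlap. It fell by 2.91 (SE 0.09, limma adjusted p = 7.7e-06), so the targeted gene went with the label on all 6 arrays. Where its probes lie relative to the deleted part is not known here. The titles of the arrays carry codes, and the last 3 codes are consecutive: wild type 3, knockout 2 and knockout 3. The codes of wild type 2 and knockout 1 are also consecutive, and that of wild type 1 stands apart. What the codes stand for is not given. A run here is a run of codes, not a known batch, and earlier arrays are those with lower codes. For the main readings the difference is also given inside this last run and inside the earlier 3 arrays, each with only 1 array of one genotype.

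None of the 81 member probe sets passed limma at an adjusted p under 0.05, where 0.0999% of all probe sets passed (0.0444% lower and 0.0555% higher). At an unadjusted p under 0.05, 12 member probe sets were lower in knockout and 5 were higher, which is 14.8% and 6.17% of the 81. Over all probe sets these shares were 8.31% and 6.81%, or 15.1% in both directions. Groups did not overlap in 16 member probe sets that were lower and 7 that were higher, where 10.7% and 8.62% of all probe sets (19.3% together) did not. Of the 81, 51 lay below 0, against 48.6% of all probe sets. By brightest probe set, 5 of 33 genes were lower and 2 were higher at that p, against 8.72% and 8.58% of all 18193 genes. Of the 33 genes, 22 lay below 0 and 11 above, with a median difference of -0.08 (-0.10 inside the earlier arrays and -0.035 inside the last run). The median over all genes was 0.01, and 47.9% of them lay below 0. Groups did not overlap in 8 genes that were lower (Setdb1, Setdb2, Kdm4d, Daxx, Dnmt1, Uhrf1, Mbd1 and Mbd3) and in 3 that were higher (Ehmt1, Atrx and Tet1), where the shares over all genes were 13.5% and 9.92% (23.5% together). The share at an unadjusted p under 0.05 in either direction, 21.2% of the 33 genes, stood beside 17.3% of all genes. In whole tissue, fewer cells of a type and less RNA per cell cannot be told apart in any of these values.

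**Figure D1:**
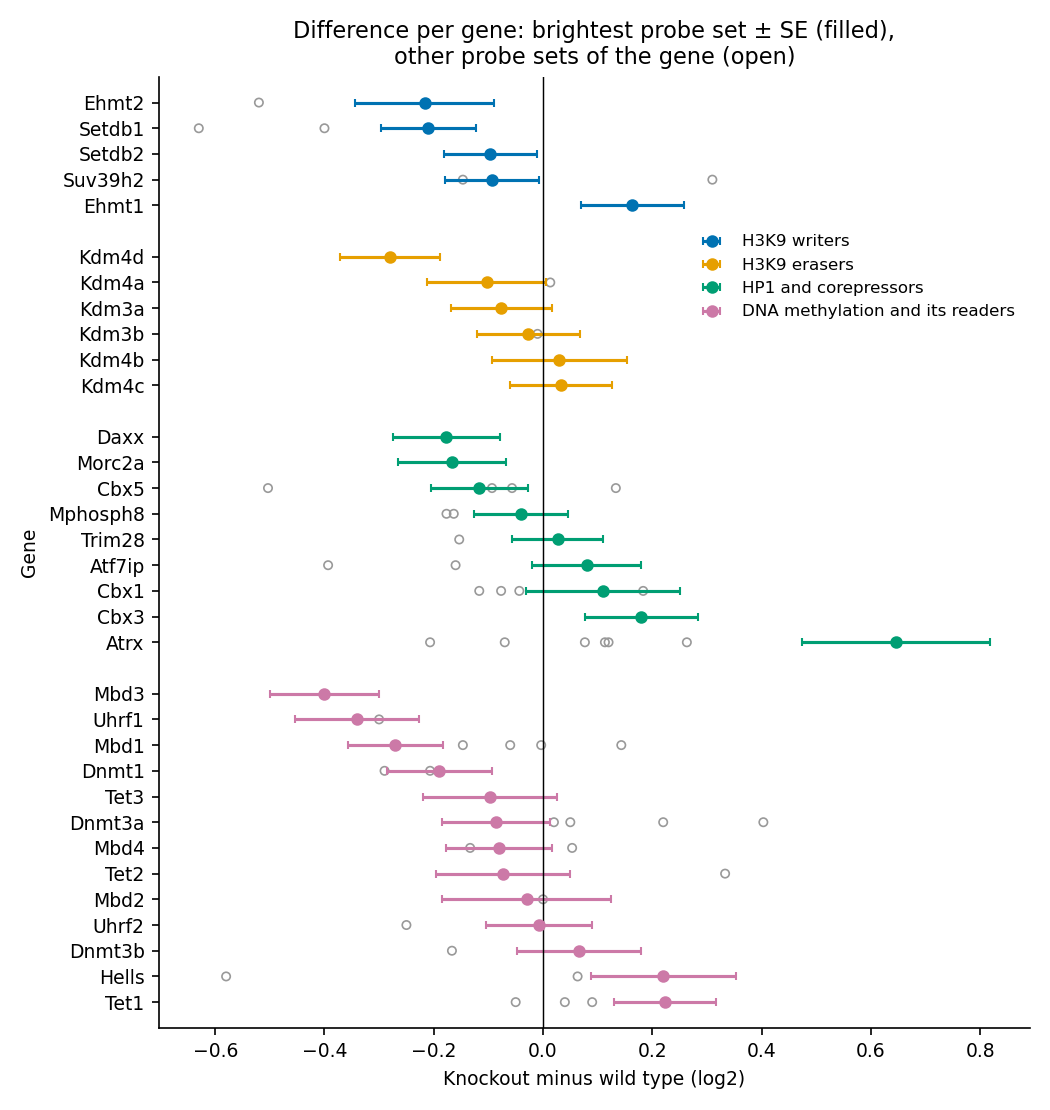
Log2 difference, knockout minus wild type, for the 33 genes in 4 role groups. Filled points are the brightest probe set with its standard error and open points are the other probe sets of the gene. Most genes lie within 0.2 of 0, Mbd3 and Uhrf1 lie lowest among the filled points at -0.40 and -0.34, and Atrx lies highest at 0.65 with its other probe sets nearer 0.

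Among the H3K9 writers, Setdb1 was lower in knockout by each of its 3 probe sets. Setdb1 encodes the methyltransferase that TRIM28 brings to transposons and imprinted regions. Its brightest probe set stood at 8.37, 8.49 and 8.47 in wild type and at 8.30, 8.22 and 8.18 in knockout, a difference of -0.21 (SE 0.09, limma adjusted p = 0.309). All knockout arrays lay below all wild-type arrays, by a small margin, and the difference was -0.13 in the earlier arrays and -0.27 in the last run.

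A dimmer Setdb1 probe set had the smallest adjusted p of all 81. It stood at 4.69, 4.80 and 4.53 in wild type and at 4.21, 3.99 and 3.93 in knockout. The groups did not overlap, and the difference was -0.63 (SE 0.11, limma adjusted p = 0.130). It was -0.57 in the last run of arrays and -0.535 in the earlier arrays. The last run minus the earlier arrays, with genotype in the fit, was -0.23. Without wild type 3 the genotype difference was -0.70 with limma adjusted p = 0.024. This probe set was 1 of 2 member probe sets called in that fit, in which 2.61% of all probe sets were called. The remaining Setdb1 probe set, with 4.22, 4.25 and 3.69 in wild type and 3.90, 3.53 and 3.53 in knockout, differed by -0.40 (SE 0.17, limma adjusted p = 0.322). Its groups overlapped. Its values were also lower in the last run of arrays than in the earlier ones, by -0.46 with genotype in the fit. Its genotype difference was -0.335 in the earlier arrays and -0.16 in the last run. The means of these dimmer Setdb1 probe sets, 4.36 and 3.85, lay below the median of 5.26 over all probe sets. No background level was at hand, so the size of their differences is uncertain.

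The EHMT enzymes, which form a complex that places mono- and dimethyl marks on H3K9, did not differ in the same direction. Ehmt2 (also called G9a) stood at 10.70, 10.51 and 10.34 in wild type and at 10.46, 10.32 and 10.12 in knockout, a difference of -0.22 (SE 0.13, limma adjusted p = 0.456). The groups overlapped. The other Ehmt2 probe set ranged from 6.46 to 7.27 in wild type and from 6.0 to 7.02 in knockout. Its genotype difference was -0.52, and its last run of arrays minus the earlier ones, with genotype in the fit, was -0.81. The partner gene Ehmt1 stood at 7.77, 7.82 and 7.58 in wild type and at 7.87, 7.87 and 7.92 in knockout. These groups did not overlap, at a difference of 0.16 (SE 0.09, limma adjusted p = 0.450). Wild type 3 was the lowest, and without it the difference was 0.09; it was 0.075 in the earlier arrays and 0.315 in the last run.

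Suv39h2, the SUV39H enzyme known for its expression in testis, gave mixed readings. Its brightest probe set stood at 9.06, 9.0 and 9.13 in wild type and at 8.92, 8.95 and 9.04 in knockout, with overlapping groups and a difference of -0.09 (SE 0.09). A second probe set differed by -0.15. The dimmest had the opposite sign, from 5.29, 5.14 and 5.28 to 5.72, 5.45 and 5.47, a difference of 0.31 (SE 0.10, limma adjusted p = 0.255) without overlap. This was 0.505 in the earlier arrays and 0.18 in the last run. The sources used here do not say which part of the transcript each probe set covers. Setdb2, a relative of Setdb1, stood at 7.12, 7.22 and 7.09 in wild type and at 7.07, 7.0 and 7.07 in knockout, a difference of -0.10 (SE 0.09) that was about as large as its error although the groups did not overlap. As a group, 4 of the 5 writers were below 0. Their median was -0.10 (-0.11 inside the earlier arrays and -0.12 inside the last run). At an unadjusted p under 0.05, 1 was lower (20%), against 8.72% of all genes, and 0 passed in limma over all probe sets.

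Of the H3K9 erasers, Kdm4d was the gene that stood apart from its own spread. It encodes a demethylase of the KDM4 family that lacks the PHD and Tudor domains of KDM4A, KDM4B and KDM4C, and it is known for its expression in testis. Kdm4d stood at 9.28, 9.38 and 9.26 in wild type and at 9.05, 9.11 and 8.92 in knockout. Every knockout array was below every wild-type array, at a difference of -0.28 (SE 0.09, limma adjusted p = 0.247). The difference was -0.28 in the earlier arrays and -0.245 in the last run. It has 1 probe set, so no second reading of the transcript was at hand.

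The other erasers differed little. Kdm3a, whose product is needed for the condensation of spermatid chromatin, stood at 10.72, 10.85 and 10.72 in wild type and at 10.76, 10.72 and 10.58 in knockout, a difference of -0.08 (SE 0.09) with overlapping groups. Kdm4c stood at 5.95, 6.04 and 6.13 in wild type and at 6.03, 6.02 and 6.17 in knockout, a difference of 0.03 (SE 0.09). Kdm3b, Kdm4a and Kdm4b differed by -0.03, -0.10 and 0.03, with SEs of 0.095, 0.11 and 0.12. The second probe sets of Kdm3b and Kdm4a differed by -0.01 and 0.01. The median over the 6 erasers was -0.05 (-0.0325 inside the earlier arrays and -0.0275 inside the last run). At an unadjusted p under 0.05, 1 was lower (16.7%), against 8.72% of all genes, and 0 were called in limma.

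The HP1 genes, whose chromodomain proteins bind methylated H3K9, did not separate by genotype in their brightest probe sets. Cbx5 (HP1 alpha) stood at 8.53, 8.47 and 8.36 in wild type and at 8.38, 8.35 and 8.28 in knockout, a difference of -0.12 (SE 0.09). One of its 4 other probe sets, dim at 5.41, 5.80 and 4.92 in wild type and 5.13, 4.68 and 4.81 in knockout, differed by -0.50 (SE 0.21, limma adjusted p = 0.319), with overlap, and by -0.535 between the last run and the earlier arrays. Its genotype difference was -0.475 in the earlier arrays and -0.175 in the last run. The remaining 3 differed by -0.09, -0.06 and 0.13. Cbx1 (HP1 beta) differed by 0.11 (SE 0.14) in its brightest probe set, which ranged from 8.61 to 9.09 in wild type, and between -0.12 and 0.18 over its 5 probe sets. Cbx3 (HP1 gamma), with 1 probe set, stood at 6.04, 5.92 and 5.90 in wild type and at 6.30, 6.01 and 6.09 in knockout, a difference of 0.18 (SE 0.10) with overlap.

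Trim28, the corepressor that recruits SETDB1 and HP1 to sites bound by KRAB zinc finger proteins, stood at 11.34, 11.29 and 11.39 in wild type and at 11.33, 11.38 and 11.39 in knockout. The groups covered each other, at a difference of 0.03 (SE 0.08). This probe set is of a type (_x_at) whose probes can bind other transcripts too. The other Trim28 probe set, not of that type, differed by -0.15 with overlap. Atf7ip, whose product stabilises SETDB1, gave readings that disagreed. Its brightest probe set stood at 7.96, 8.02 and 7.75 in wild type and at 7.92, 8.01 and 8.04 in knockout, a difference of 0.08 (SE 0.10). A probe set of nearly the same level stood at 7.88, 7.89 and 7.60 in wild type and at 7.44, 7.46 and 7.29 in knockout, a difference of -0.39 (SE 0.11, limma adjusted p = 0.214) without overlap. The difference of this second probe set was -0.445 in the earlier arrays and -0.225 in the last run. The remaining Atf7ip probe set was dim and differed by -0.16.

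Atrx, an X-linked gene, had the largest positive difference of the 33 genes by brightest probe set. It encodes a chromatin remodeller that, with the histone chaperone DAXX, places histone H3.3 in heterochromatin. Its brightest probe set stood at 6.06, 6.61 and 6.24 in wild type and at 6.65, 7.08 and 7.12 in knockout, a difference of 0.65 (SE 0.17, limma adjusted p = 0.208). The groups did not overlap, although wild type 2 at 6.61 and knockout 1 at 6.65 nearly met. The difference was 0.86 in the last run of arrays and 0.315 in the earlier ones. A dim probe set of Atrx was also higher without overlap, from 4.32, 4.30 and 4.34 to 4.61, 4.52 and 4.62, a difference of 0.26 (SE 0.08, limma adjusted p = 0.238). The other 5 probe sets of Atrx differed by -0.21 to 0.12, so the array gave no single reading for the gene.

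Daxx stood at 9.86, 9.61 and 9.61 in wild type and at 9.50, 9.55 and 9.50 in knockout. The groups did not overlap, and the difference was -0.18 (SE 0.10, limma adjusted p = 0.434). Wild type 1 was the highest, and without it the difference was -0.09; it was -0.235 in the earlier arrays and -0.085 in the last run. Morc2a and Mphosph8 belong to the HUSH system, which silences transposons with H3K9 methylation. Morc2a differed by -0.17 (SE 0.10) and Mphosph8 by -0.04 (SE 0.09), and the other probe sets of Mphosph8 differed by -0.18 and -0.16. Of the 9 HP1 and corepressor genes, 1 was higher (11.1%) and 0 were lower at an unadjusted p under 0.05. Over all genes these shares were 8.58% and 8.72%. In limma over all probe sets 0 passed. Of the 9 genes, 5 were above 0 and 4 below, with a median of 0.03. That median turned to -0.13 when the probe sets of each gene were averaged, and it was -0.07 inside the earlier arrays and -0.005 inside the last run.

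**Figure D2:**
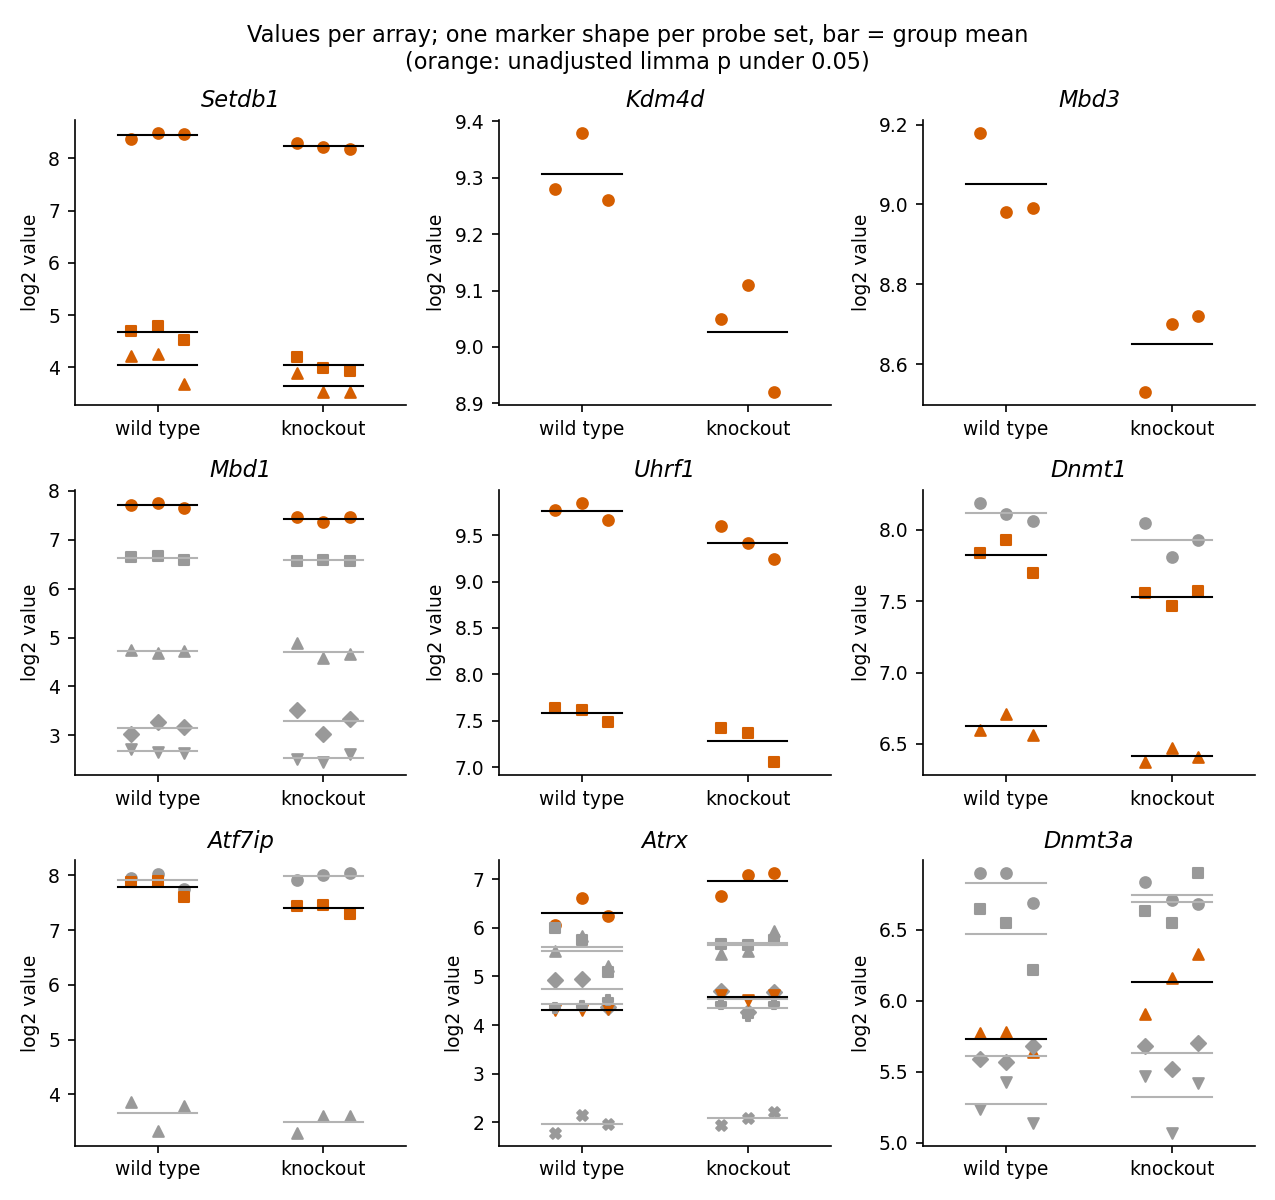
Log2 value on each of the 6 arrays for 9 genes, with 1 marker shape per probe set and a bar at the mean of each group of 3. Orange marks probe sets with an unadjusted limma p under 0.05. All probe sets of Setdb1 and Uhrf1 are orange and lower in knockout, while Atf7ip, Atrx, Dnmt1, Dnmt3a and Mbd1 mix orange and grey probe sets.

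All 5 probe sets of Uhrf1 and Dnmt1, the genes that maintain DNA methylation, had differences below 0, and none passed limma over all probe sets. Uhrf1, with a probe set at 9.77, 9.85 and 9.66 in wild type and at 9.60, 9.42 and 9.24 in knockout, differed by -0.34 (SE 0.11, limma adjusted p = 0.252). Its other probe set, at 7.64, 7.61 and 7.49 in wild type and 7.42, 7.37 and 7.05 in knockout, differed by -0.30 (SE 0.12, limma adjusted p = 0.293). Neither reading overlapped between genotypes, and in both the lowest value was that of knockout 3. The brighter probe set differed by -0.21 in the earlier arrays and by -0.33 in the last run.

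Dnmt1 has 3 probe sets. The brightest stood at 8.19, 8.11 and 8.06 in wild type and at 8.05, 7.81 and 7.93 in knockout, a difference of -0.19 (SE 0.10, limma adjusted p = 0.389). The second stood at 7.84, 7.93 and 7.70 in wild type and at 7.56, 7.47 and 7.57 in knockout, a difference of -0.29 (SE 0.09, limma adjusted p = 0.245). The dimmest stood at 6.60, 6.71 and 6.56 in wild type and at 6.37, 6.47 and 6.41 in knockout, a difference of -0.21 (SE 0.09, limma adjusted p = 0.317). The groups were separate in all 3, by as little as 0.01 in the first, which did not pass an unadjusted p under 0.05 either. In the earlier arrays the 3 differences were -0.10, -0.325 and -0.285, and in the last run they were -0.19, -0.18 and -0.12. The last 2 are of a type (_x_at) whose probes can bind other transcripts too.

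Hells, which encodes a remodeller that opens heterochromatin to DNA methylation, did not go with them. It stood at 8.98, 9.31 and 9.25 in wild type and at 9.21, 9.38 and 9.61 in knockout, which overlapped, at a difference of 0.22 (SE 0.13, limma adjusted p = 0.469). A dim probe set of Hells stood at 4.48, 4.47 and 3.48 in wild type and at 3.37, 3.57 and 3.75 in knockout, so wild type 3 lay with the knockout arrays. Its difference was -0.58 (SE 0.25, limma adjusted p = 0.331). It was the other member probe set called without wild type 3 (-0.91, limma adjusted p = 0.012), while inside the last run of arrays it differed by 0.18. The remaining Hells probe set differed by 0.06. Uhrf2, a relative of Uhrf1, differed by -0.01 (SE 0.10) and, in a dim probe set, by -0.25 (SE 0.15).

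The start regions of these genes are shown because Dnmt1, Uhrf1 and Hells are among the 4 member genes whose RefSeq promoter windows (GRCm38.p6, the 250 bases before a transcript start) hold an E2F motif. E2F factors drive genes of DNA replication. The letters searched on both strands were TTTCCCGC, TTTGGCGC and TTTCGCGC; matches on opposite strands may overlap, and TTTCCCGC can share letters with a GC box. Windows were found for 29 of the 33 genes, 43 in all, and 4 of the 43 (9.30%) held a match, against 1.53% of all 32851 windows. Among windows with at least 20 CpG sites, the median of the members, the shares were 17.4% (4 of 23) and 3.99%. CCAAT and GC boxes were also searched. A CCAAT box lay in 41.9% of member windows and 33.8% of all, and a GC box in 74.4% and 32.7%. Among windows with at least 20 CpG sites these shares were 39.1% and 28.4%, and 91.3% and 80.9%. Some genes had several windows. By brightest probe set, Dnmt1 (-0.19) and Uhrf1 (-0.34) lay below 0, and Hells (0.22) and Cbx3 (0.18) above. Each stretch is given 5′ to 3′ on the gene's own strand, with the matched letters in capitals and 30 bases before and 20 after.
Dnmt1, chr9:20952815-20952872, minus strand: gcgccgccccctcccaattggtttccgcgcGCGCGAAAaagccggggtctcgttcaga
Uhrf1, chr17:56304098-56304155, plus strand: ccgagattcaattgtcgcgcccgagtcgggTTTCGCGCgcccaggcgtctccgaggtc
Hells, chr19:38930898-38930955, plus strand: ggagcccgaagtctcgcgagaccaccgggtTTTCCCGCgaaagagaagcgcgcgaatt
Cbx3, chr6:51470418-51470475, plus strand: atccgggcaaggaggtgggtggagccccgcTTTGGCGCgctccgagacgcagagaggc

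The Dnmt1 and Uhrf1 stretches hold the same letters on opposite strands, starting 219 and 185 bases before the start. RefSeq gives Dnmt1 3 windows, with 26, 7 and 2 CpG sites, and only the CpG-rich one held a match. Dnmt1 is known to use separate first exons in somatic cells, oocytes and pachytene spermatocytes; these values do not say which start the testis RNA came from. A match is a run of letters, and no binding was measured.

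The de novo methyltransferases gave mixed signs. Dnmt3a stood at 6.90, 6.90 and 6.69 in wild type and at 6.84, 6.71 and 6.68 in knockout by its brightest probe set, a difference of -0.09 (SE 0.10) with overlap. Another Dnmt3a probe set was higher, from 5.77, 5.78 and 5.64 to 5.91, 6.16 and 6.33, a difference of 0.40 (SE 0.12, limma adjusted p = 0.224) without overlap. Inside the earlier arrays it differed by 0.135 and inside the last run by 0.605. The other 3 differed by 0.02, 0.05 and 0.22, so 4 of the 5 Dnmt3a probe sets lay above 0. Dnmt3b differed by 0.07 (SE 0.11) and, in its other probe set, by -0.17.

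Among readers of methylated DNA, Mbd3 had the largest negative difference of the 33 genes by brightest probe set. It encodes a subunit of the NuRD deacetylase complex and, unlike its relatives, binds methylated CpG poorly. Mbd3 stood at 9.18, 8.98 and 8.99 in wild type and at 8.53, 8.70 and 8.72 in knockout, a difference of -0.40 (SE 0.10, limma adjusted p = 0.198), which is a 1.32-fold lower level. Its single probe set showed no overlap, with 8.98 as the lowest wild-type value and 8.72 as the highest knockout value. It differed by -0.55 in the earlier arrays, where knockout 1 was the lowest of all, and by -0.28 in the last run.

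Mbd1, which links methylated CpG sites to SETDB1, was lower in its brightest probe set, at 7.71, 7.75 and 7.64 in wild type and 7.47, 7.35 and 7.47 in knockout. The groups were separate, at a difference of -0.27 (SE 0.09, limma adjusted p = 0.242), and it was -0.26 in the earlier arrays and -0.23 in the last run. Its 4 other probe sets differed by -0.15 to 0.14. Mbd2, the methyl-binding partner that defines the other NuRD form, differed by -0.03 (SE 0.15), and its second probe set had the same mean in both genotypes. Mbd4, a DNA glycosylase of the family, differed by -0.08 (SE 0.10), and its other probe sets by -0.13 and 0.05.

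The TET genes, whose products oxidise methylated cytosine, had probe sets whose means all lay below the median of 5.26 over all probe sets. Tet1 stood at 3.72, 3.88 and 3.67 in wild type and at 4.04, 3.95 and 3.95 in knockout, a difference of 0.22 (SE 0.09, limma adjusted p = 0.310; 0.24 in the earlier arrays and 0.28 in the last run) without overlap, close to the lower quartile of the arrays. Its 3 other probe sets differed by -0.05 to 0.09. Tet2 differed by -0.07 (SE 0.12) in one probe set and by 0.33 (SE 0.15) in the other, whose groups did not overlap. This second Tet2 difference was 0.12 in the earlier arrays, 0.695 in the last run and 0.16 without wild type 3. Tet3 differed by -0.10 (SE 0.12). No background level was at hand, so the size of a difference at such levels is uncertain. Of the 13 genes of DNA methylation and its readers, 10 were below 0. Their median was -0.08 (-0.145 inside the earlier arrays and -0.04 inside the last run). At an unadjusted p under 0.05, 3 were lower (Mbd3, Uhrf1 and Mbd1) and 1 was higher (Tet1). These are 23.1% and 7.69%, against 8.72% and 8.58% of all genes. In limma over all probe sets 0 passed.

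Of the 22 genes with several probe sets, 7 had all of them below 0 (Setdb1, Ehmt2, Kdm3b, Mphosph8, Dnmt1, Uhrf1 and Uhrf2), none had all above 0, and 15 had mixed signs or a difference of 0. No matching counts over all genes were made, so these have no baseline and are not read as a trait of the members. Setdb1 and Uhrf1 were the genes with several probe sets all at an unadjusted p under 0.05. All 12 probe sets that were lower at that p lay below 0 both in the earlier arrays and in the last run, and all 5 that were higher lay above 0 in both. The p came from these same arrays, so this is a description. With the last run as a block, 14 of the 17 kept an unadjusted p under 0.05. The 3 that did not were the brightest of Setdb1, the dimmer of Uhrf1 and the dimmest of Dnmt1, so neither Setdb1 nor Uhrf1 then had all probe sets at that p. Of the 17, 6 kept it in each fit that left out 1 array. How often other probe sets of the array kept theirs was not counted. In the fit with the last run as a block, 10 of the 81 member probe sets had an unadjusted p under 0.05 for the run itself, where 15.3% of all probe sets did. At an adjusted p under 0.05 for the run, 0 of the 81 and 0.06% of all probe sets passed.

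**Figure D3:**
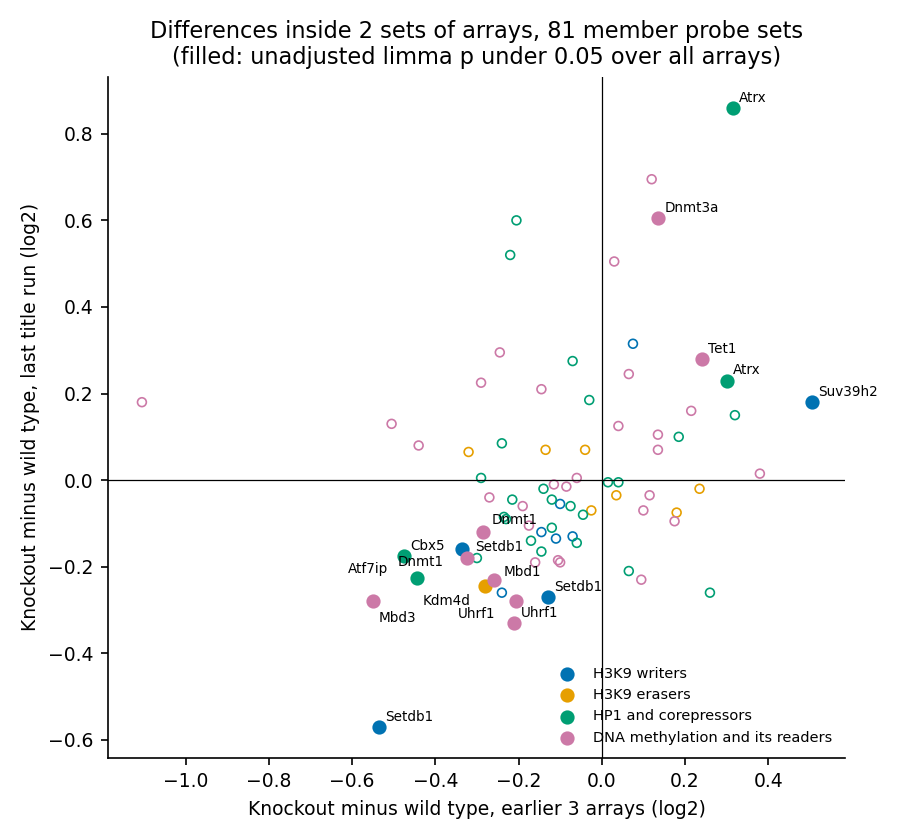
Log2 difference, knockout minus wild type, inside the earlier 3 arrays (wild type 1, wild type 2, knockout 1; horizontal) and inside the last title run (wild type 3, knockout 2, knockout 3; vertical) for the 81 member probe sets. Filled points are the 17 with an unadjusted limma p under 0.05 over all arrays; 12 lie in the lower left and 5 in the upper right quadrant.

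When arrays were weighted by their fit, 10 member probe sets of 9 genes passed an adjusted p under 0.05 (12.3%), where 7.07% of all probe sets passed. The weights were uneven: 2.74 for knockout 2 and 1.73 for wild type 2, but 0.60 for wild type 3 and 0.38 for knockout 1. Of the 10 probe sets 8 were lower: Setdb1 with 2 probe sets, Cbx5, Atf7ip, Dnmt1, Uhrf1, Mbd1 and Mbd3. The other 2 were higher, in Atrx and Dnmt3a. All 10 were among the 17 with an unadjusted p under 0.05 when arrays had equal weight.

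Further genes of the same pathways also lay near 0. Of 17 further H3K9 genes, 12 were below 0 with a median of -0.09. At an unadjusted p under 0.05, 2 were higher (11.8%) and 0 were lower, against 8.58% and 8.72% of all genes. In limma over all probe sets 0 passed. The higher ones were Phf8, a demethylase gene, with 0.36 (SE 0.09, limma adjusted p = 0.193), and Mecom, with 0.33 (SE 0.13). Wiz, a partner of the EHMT enzymes, had -0.21 (SE 0.11). Of 15 further heterochromatin genes 8 were below 0 with a median of -0.01. At an unadjusted p under 0.05, 2 were lower (13.3%), against 8.72% of all genes. These were Chaf1b, a subunit of the replication-coupled histone chaperone CAF-1, and Incenp, of the chromosomal passenger complex. They had -0.30 (SE 0.08, limma adjusted p = 0.214) and -0.22 (SE 0.09), while Smarcad1 had 0.31 (SE 0.15). Of 15 further DNA methylation genes 10 were below 0 with a median of -0.04. At an unadjusted p under 0.05, 1 was lower and 1 was higher (6.67% each), against 8.72% and 8.58% of all genes. Dnmt3l, the cofactor of DNA methylation in germ cells, had -0.26 (SE 0.09, limma adjusted p = 0.260). The reader gene Zbtb33 had 0.43 (SE 0.16) with overlapping groups, and Mbd6 had -0.20 (SE 0.10). None of these 47 genes passed limma over all probe sets.

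The median of the Sertoli cell markers was above 0 in both sets of arrays, while the medians of the Leydig, peritubular myoid and leukocyte markers were above 0 in the last run and below 0 in the earlier arrays. Of 12 Sertoli cell markers, 11 were above 0, with a median of 0.42 (0.30 in the earlier arrays and 0.40 in the last run). An unadjusted p under 0.05 was passed by 7, all higher (58.3%), against 8.58% of all genes. List means ran from 8.08 to 8.11 on wild-type arrays and from 8.37 to 8.52 on knockout arrays. Of 6 Leydig markers all were above 0 (median 0.24; list means 8.60 to 8.86 in wild type and 8.76 to 9.20 in knockout). Inside the earlier arrays the Leydig median was -0.0325 and inside the last run 0.26. At an unadjusted p under 0.05, 2 Leydig markers were higher (33.3%), against 8.58% of all genes, and 0 were lower. They were Star and Hsd3b1, which differed by 0.41 and 0.42 in the earlier arrays and by 0.66 and 0.705 in the last run. Medians were 0.11 for 5 peritubular myoid markers, with list means of 7.36 to 7.57 and 7.5 to 7.70, and 0.22 for 7 leukocyte markers, with 5.40 to 5.55 and 5.41 to 5.91. In the earlier arrays these medians were -0.045 for both lists, and in the last run they were 0.365 and 0.30. At an unadjusted p under 0.05, 1 myoid marker was higher (20%), against 8.58% of all genes, and 0 leukocyte markers were. It was Acta2, which differed by 0.335 in the earlier arrays and by 0.58 in the last run. Of 12 spermatocyte markers, 8 were below 0 with a median of -0.08 (-0.095 in the earlier arrays and -0.0525 in the last run). At an unadjusted p under 0.05, 3 were lower (25%), against 8.72% of all genes. The spermatocyte list means ran from 9.75 to 9.88 in wild type and from 9.71 to 9.77 in knockout.

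The remaining germ cell lists had medians near 0. These were 0.01 for 9 spermatogonial markers (list means 7.02 to 7.04 and 6.92 to 7.11), 0.02 for 9 round spermatid markers (10.6 to 10.7 in both genotypes) and 0.00 for 8 elongating spermatid markers (13.2 to 13.3 in both). In the earlier arrays these 3 medians were -0.08, -0.02 and 0.005, and in the last run 0.08, -0.09 and -0.0425. At an unadjusted p under 0.05, 2 spermatogonial markers were lower (22.2%), against 8.72% of all genes, and 0 were higher. They were Lin28a with -0.43 (SE 0.09, limma adjusted p = 0.163) and Id4 with -0.23 (SE 0.10), both without overlap. In the round and elongating spermatid lists 0 markers reached that p. No defining marker was at 0, which log2 values of this kind do not reach. No gene of the 8 marker lists passed limma over all probe sets. The part of cell type composition in the differences of Setdb1, Uhrf1, Dnmt1, Mbd1, Mbd3, Kdm4d and Atrx was not tested.

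**Figure D4:**
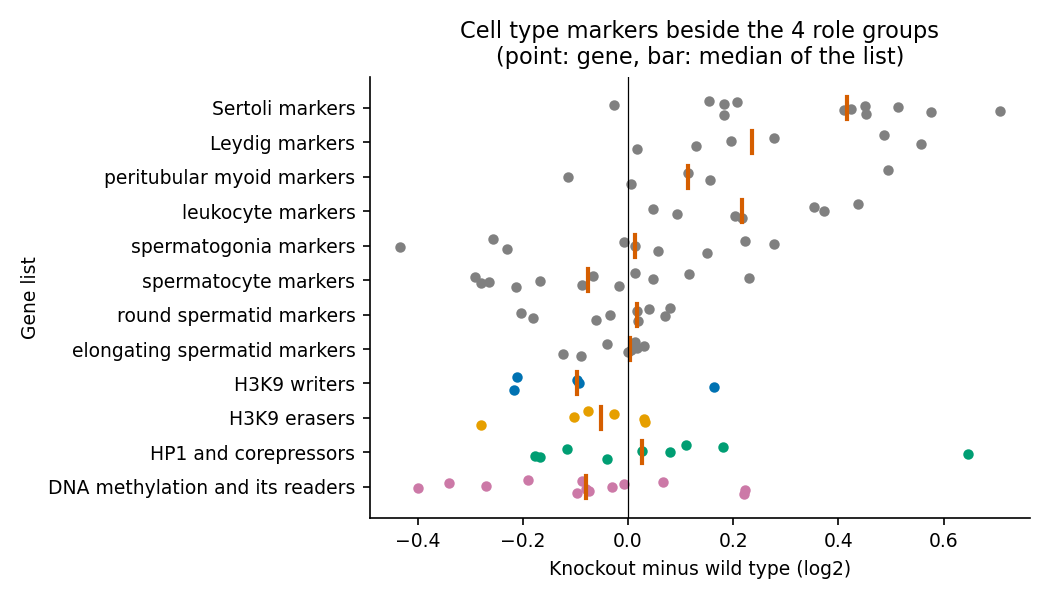
Log2 difference, knockout minus wild type, of each marker gene in 8 cell type lists (grey) and of each member gene in 4 role groups (coloured), with a bar at the median of each list. Sertoli markers have a median of 0.42, spermatocyte markers -0.08, and the role groups lie between -0.10 and 0.03.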

How the data were processed

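Total RNA of whole testis was measured on 6 Affymetrix arrays. The authors deposited 1 value per probe set and array, on a log2 scale as judged by its range. The submitters' processing notes name Affymetrix Expression Console 1.4.1. Summarization and normalization were not given in the sources used here. Control probe sets (64) were left out and 45037 were tested without a filter. Names came from the platform annotation, where 34945 probe sets had 1 symbol; promoter windows came from RefSeq (GRCm38.p6).

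Differences were fitted on genotype with lmFit and eBayes of limma 3.58.1 in R 4.3.3, two-sided, with Benjamini-Hochberg adjustment over all probe sets and a threshold of 0.05; the procedure was tested on simulated data. Unadjusted p-values are used only to count and to choose what is shown. All members are named; values per array are given where a probe set had an unadjusted p under 0.05 or the brightest did not overlap between genotypes, and for the brightest and dimmest gene of each role, an order used only to choose them. From the 3 lists of further pathway genes, the 3 genes with the smallest p are named; 8 marker lists describe cell types. The members and lists were chosen with earlier results of these data known. Alternatives were blocks for replicate number and title codes, a level filter, quantile normalization, median centring, other moderation, array weights, averaged probe sets and leaving out each array. The number of arrays limits the precision.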

Additional observations from a re-analysis of the deposited data

How the results depend on the processing

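The fall of Phf13 passed in every alternative run. The 0 calls among member probe sets became 10 with array weights, ran from 0 to 2 over fits without 1 array (2 without wild type 3), and stayed 0 in the other alternatives. Over the whole array 45 probe sets were called. The replicate block, whose numbers are not known to pair the arrays (correlations of deviations 0.26, 0.07 and 0.12), gave 28, a block for title code runs gave 16, keeping only brighter probe sets (over the median) 79, trend and robust moderation 110, array weights 3186, a threshold of 0.1 gave 100, and fits without 1 array 12 to 1176 (1176 without wild type 3). The median of the members, -0.08, was -0.038 with quantile normalization and ran from -0.078 to -0.033 without 1 array. The median of the writers was -0.14 with array weights, that of DNA methylation genes -0.125 with the last title run as a block and -0.11 to -0.028 without 1 array, and that of erasers -0.0925 to -0.0275. The median of HP1 and corepressor genes, 0.03, was -0.063 with title code runs as a block, -0.13 with averaged probe sets, and -0.03 to 0.045 without 1 array. No member was called over all 6 arrays at equal weight, and the signs of several turned. With averaged probe sets they did so for Suv39h2 (0.023), Trim28 (-0.063), Atf7ip (-0.16), Dnmt3a (0.12), Dnmt3b (-0.05), Tet2 (0.13) and Hells (-0.10). With title code runs as a block they did so for Kdm3b (0.044), Kdm4c (-0.024), Cbx1 (-0.063), Uhrf2 (0.014) and Tet2 (0.017). With the last run as a block they did so for Kdm3b (0.015) and Uhrf2 (0.04), with quantile normalization for Kdm3b (0.011), Uhrf2 (0.005) and Mbd2 (0.024), and with array weights for Kdm4b (-0.035), Mbd2 (0.084) and Tet3 (0.041). Without 1 array, Cbx1 ran from -0.03 to 0.21, Dnmt3b from -0.015 to 0.16, Kdm3b from -0.087 to 0.028, Kdm4b from -0.09 to 0.10, Kdm4c from -0.015 to 0.078, Mbd2 from -0.17 to 0.10, Tet2 from -0.20 to 0.005 and Uhrf2 from -0.078 to 0.052. The causes were not tested. Dim probe sets, which include those of the TET genes and the dimmer ones of Setdb1, lie where background limits what a difference means.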
